A study of Mus musculus with 12 samples.

Results

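The genes of the Nrf2 pathway were followed in the livers of female and male mice fed simvastatin, an inhibitor of HMG-CoA reductase, the rate-limiting enzyme of cholesterol synthesis. The 10 genes are named members of the pathway, in a list drawn up with earlier results of these livers known, so counts over it are descriptions. They were the transcription factor gene Nfe2l2, which encodes Nrf2, its repressor gene Keap1, the autophagy receptor gene Sqstm1 (p62), and the targets Gclc, Gclm, Gsr, Srxn1, Txnrd1, Nqo1 and Hmox1. All 10 were among the 11968 genes of the filtered count table, out of 48526 annotated genes. None of the 10 was lost to the filter on low counts.

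Poly(A) RNA was sequenced from 12 livers of C57BL/6J mice, an inbred laboratory strain, in 4 groups of 3: female chow, female statin, male chow and male statin. The mice were adults, each liver came from a different mouse, and every group ate the same base chow for 4 weeks. The treated groups ate it with simvastatin, for which the labels state 0.1 g per kg body weight and the methods 0.1 g per kg food weight. No mutant allele or transgene was named for any group. Each library held between 46066381 and 60419223 reads counted on genes, and levels are given as CPM, the counts scaled to the same total in every library. The methods of the study state an average depth below these totals, and the difference was not resolved. A count of 3, used here as the floor of detection, was equal to 0.0497 to 0.0651 CPM depending on the library, which covers counting error only. The defining genes of hepatocytes, such as Alb, were detected in every liver. Within groups, 57.9% of the variance of 7639 genes lay along a single axis, and the weight of a gene on this axis correlated with its exonic length (rho = 0.452 by Spearman's method; genes are not independent replicates). The labels name no batch.

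Nrf2 is held in the cytoplasm by Keap1, which carries it to a ubiquitin ligase for breakdown. Electrophiles and oxidants modify cysteines of Keap1, after which Nrf2 builds up, enters the nucleus and binds antioxidant response elements together with a small Maf protein. In the liver its targets make glutathione, reduce thioredoxin, quinones and sulfinic peroxiredoxin, break down heme and supply NADPH. Control of Nrf2 is largely at the level of the protein, which mRNA counts do not measure. p62 binds Keap1 and takes it to autophagy, and its own gene is a target of Nrf2.

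The core of the antioxidant response element, TGACNNNGC, was searched on both strands of the RefSeq promoters of these genes, from 250 bases before to 50 bases after the start of transcription (GRCm38.p6). The first letters of this motif overlap the AP-1 motif TGACTCA where the next bases are TCA. The promoter table held 9 promoters of 7 of the 10 genes, and Gclc, Gsr and Hmox1 had no entry. Of the 9 promoters, 4 held the motif (44.4%), against 12.4% of 32851 promoters of all genes. The windows below show every match in the promoters of the members, of the Nrf2 partners and of the genes that make NADPH, since these groups carry most of the values given later. Promoters of the other lists described below, such as that of Prdx1, also held the motif and are not shown. They are written 5′ to 3′ on the strand of the motif, with the motif in capitals. The first 4 belong to members, the next 3 to small Maf partners, and the last 3 to genes that make NADPH.
Nfe2l2: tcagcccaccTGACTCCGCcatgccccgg
Gclm: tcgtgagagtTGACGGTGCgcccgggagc
Srxn1: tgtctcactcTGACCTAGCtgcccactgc
Txnrd1: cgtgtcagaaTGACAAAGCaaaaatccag
Maff: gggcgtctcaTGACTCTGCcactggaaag
Mafk: tccccagtacTGACACCGCttccgggatc
Mafg: ctcgccgggtTGACCGTGCtcctgcagag
Pgd: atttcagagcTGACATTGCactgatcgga
Me1: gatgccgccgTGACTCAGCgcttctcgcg
G6pdx: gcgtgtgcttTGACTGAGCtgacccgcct

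The Nfe2l2 window lay at chr2:75704885-75704913 on the minus strand, and its motif began 240 bases upstream of the start of the gene. The Gclm window (chr3:122245413-122245441, minus strand) had its motif 134 bases upstream, and the Txnrd1 window (chr10:82859104-82859132, minus strand) 92 bases upstream of one of the 3 starts listed for that gene. The Srxn1 window (chr2:152105542-152105570, minus strand) had its motif 28 bases downstream of the start. For the partners, the Maff window was at chr15:79346499-79346527 on the plus strand, with the motif 112 bases upstream, the Mafk window at chr5:139791513-139791541 on the minus strand, with the motif 13 bases upstream, and the Mafg window at chr11:120633751-120633779 on the plus strand, with the motif 222 bases upstream. For the NADPH enzymes, the motif in the Pgd window (chr4:149166061-149166089, minus strand) began 3 bases downstream of the start, that in the Me1 window (chr9:86695902-86695930, minus strand) 6 bases upstream and that in the G6pdx window (chrX:74428919-74428947, plus strand) 57 bases upstream. All distances were counted to the first base of the motif along the strand of the gene, also where the motif lay on the other strand. A match to these letters is a description of the sequence and was not tested as a binding site.

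Levels are given as CPM after TMM normalization, which scales each library by a trimmed mean of log ratios. Divided by exonic length, the mean over 12 livers was highest for Sqstm1 at 91.4 CPM per kilobase. Gclc at 48.8 and Gclm at 31.7 CPM per kilobase followed, the catalytic and the modifier subunit of glutamate-cysteine ligase, which makes the first step of glutathione synthesis. Txnrd1 (18.8), Gsr (15.97), Nfe2l2 (15.96), Srxn1 (13.3), Keap1 (12.7) and Hmox1 (11.7 CPM per kilobase) lay close together. The ranges of their group means ran into each other, from 9.54 to 14.96 CPM per kilobase for Hmox1 to 13.5 to 17.3 for Gsr, with Txnrd1 above the others at 17.99 to 20.6, so the order among the last 5 of these was not resolved for most pairs. Nqo1 was lowest at 6.90 CPM per kilobase. The coefficient of variation among the 3 livers of a group was between 2.11% and 10.7% for Nfe2l2 and between 20.8% and 41.2% for Nqo1, so the same fold change was measured less precisely for Nqo1.

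**Figure D1:**
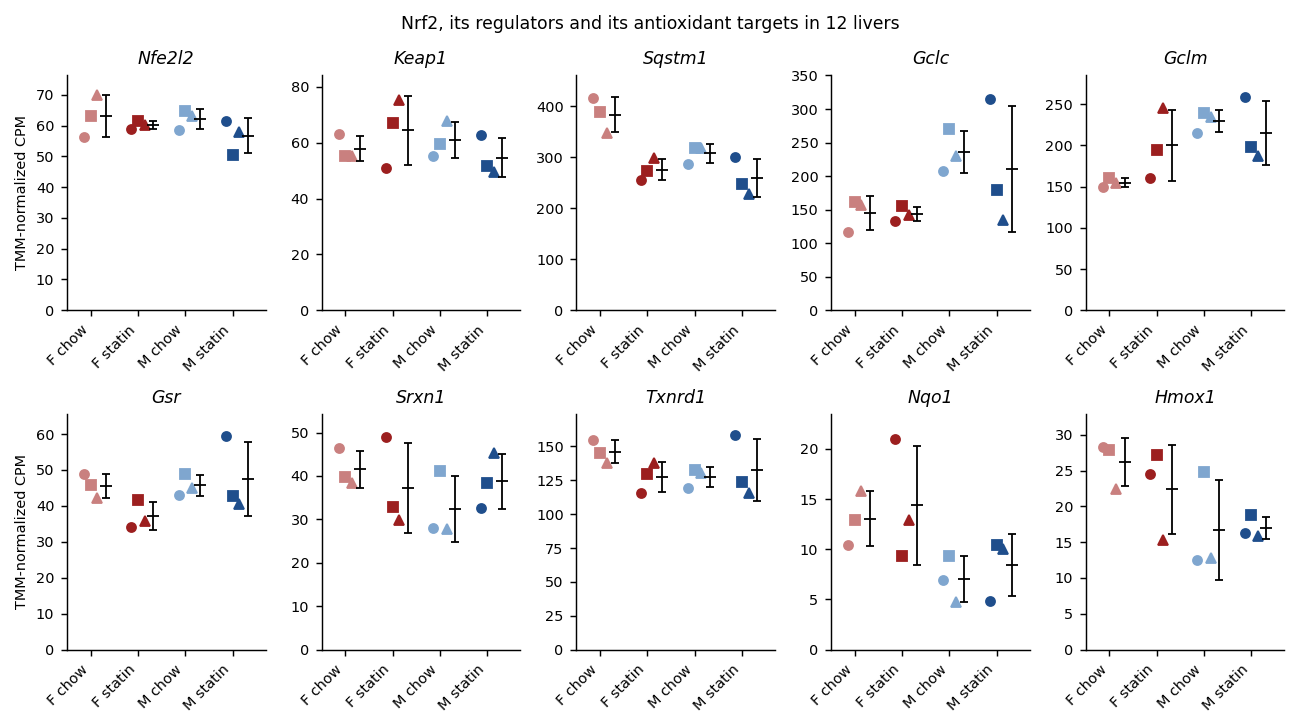
TMM-normalized CPM (y axis, from 0) of the 10 genes in each liver of the 4 groups (F, female and M, male; circle, square and triangle for replicates 1, 2 and 3), with the mean and SD of 3 livers in black beside the points. The Sqstm1 points of the female statin livers sit between 256 and 298 CPM, all below the female chow livers at 348 to 416 CPM, and the Gclc and Gclm points of female chow lie wholly below those of male chow.

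The first question was whether statin changed the pathway in females. The adjusted threshold of 0.05 was passed by 0 of the 10 (edgeR's quasi-likelihood test, adjusted over all 11968 genes) and by 0.100% of all genes. Before adjustment, 2 genes, Sqstm1 and Gclm, had p-values under 0.05, against 10.5% of all genes. DESeq2 called 1 of the 10 and 2.26% of all genes, and limma 0 of the 10 and 0.109% of all genes. The statin livers lay wholly below the chow livers in 3 genes, Sqstm1, Gsr and Txnrd1, and wholly above them in 0, against 5.97% and 6.03% of all genes. The study had examined Sqstm1, Gsr and Txnrd1 in these same livers, so their count is not independent evidence of a direction. The median log2 fold change of the 10 genes was -0.11, beside 0.013 over all genes tested. It was -0.0042 without the female statin replicate 3 and -0.18 without the female statin replicate 1. In the same comparison 6 of 6 stellate cell and fibroblast markers had log2 fold changes below 0 (median -0.43, 0 called by edgeR and 1 with an unadjusted p-value under 0.05), with a summed level of 305 to 365 CPM in female chow and 207 to 318 CPM in female statin. Of 8 hepatocyte markers 5 were above 0 (median 0.20), of 10 Kupffer cell markers 9 (median 0.087) and of 6 endothelial markers 2 (median -0.088), with 0 called in each. The part of these cells in the members' values was not tested.

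Sqstm1 (chromosome 11 of GRCm38, 50199366 to 50210827, minus strand) overlaps Mrnip on the other strand. In female chow its level was 416, 389 and 348 CPM, and in female statin 256, 274 and 298 CPM. Every statin liver was thus lower than every chow liver. The log2 fold change was -0.48 (SE 0.14, 95% interval -0.77 to -0.18), with an adjusted p of 0.218 by edgeR. DESeq2 gave an adjusted p of 0.0197 for the same gene, and limma 0.203.

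Nfe2l2 (chromosome 2, 75675513 to 75704641, minus strand), which overlaps Gm24996 on the same strand, was at 56.5, 63.1 and 70.0 CPM in female chow and at 59.1, 61.6 and 60.3 CPM in female statin. All statin livers lay inside the range of the chow livers. The 95% interval of the log2 fold change ran from -0.32 to 0.18 (estimate -0.067, SE 0.12, adjusted p = 0.952, edgeR).

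Keap1 (chromosome 9, 21229730 to 21239361, minus strand), which overlaps the antisense gene Gm16754, was at 63.0, 55.3 and 55.3 CPM in female chow. In female statin it was at 51.1, 67.0 and 75.3 CPM, a wider spread that covered the chow livers. The log2 fold change was 0.15 (95% interval -0.18 to 0.49, adjusted p = 0.859, edgeR). It was 0.045 without the female statin replicate 3 and 0.30 without the female statin replicate 1.

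Among the glutathione genes, Gclm (chromosome 3, 122245557 to 122270732, plus strand) was the member with the highest log2 fold change in females. It overlaps Gm6061 on the same strand and Gm17494 on the other. It was at 150, 161 and 154 CPM in female chow and at 160, 194 and 245 CPM in female statin, and the groups overlapped by a small margin. The log2 fold change was 0.37 (SE 0.17, 95% interval 0.0060 to 0.73, unadjusted p = 0.0469, adjusted p = 0.466, edgeR). It lay between 0.21 and 0.51 when each of the 12 livers was left out in turn.

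Gclc (chromosome 9, 77754535 to 77794485, plus strand), the other subunit of the same enzyme, was at 116, 162 and 157 CPM in female chow and at 134, 155 and 142 CPM in female statin. The statin livers lay inside the range of the chow livers. Its log2 fold change was -0.013 (95% interval -0.57 to 0.54, adjusted p = 0.999, edgeR).

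Gsr (chromosome 8, 33652523 to 33698163, plus strand) encodes glutathione reductase, which returns oxidized glutathione to its reduced form with NADPH, and overlaps Gm24727 on the same strand. Its level was 48.8, 45.8 and 42.2 CPM in female chow and 34.1, 41.6 and 35.8 CPM in female statin. The groups did not overlap, with a gap under 1 CPM between the nearest livers. The 95% interval of the log2 fold change, -0.62 to 0.029, included 0 (adjusted p = 0.538, edgeR).

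Txnrd1 (chromosome 10, 82833951 to 82897712, plus strand) encodes cytosolic thioredoxin reductase and overlaps Eid3 on the same strand and Gm38560 and Gm47073 on the other. It was at 155, 145 and 138 CPM in female chow and at 116, 129 and 137 CPM in female statin. The groups were separated by the narrowest of margins, and the 95% interval of the log2 fold change was -0.49 to 0.10 (adjusted p = 0.726, edgeR).

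Srxn1 (chromosome 2, 152105516 to 152111376, plus strand) encodes sulfiredoxin, which repairs over-oxidized peroxiredoxin. In female chow it was at 46.4, 39.8 and 38.4 CPM, and in female statin at 49.1, 32.8 and 29.8 CPM, so that the highest and the lowest of the 6 livers were both on statin. The log2 fold change was -0.16 (95% interval -0.62 to 0.30, adjusted p = 0.925, edgeR). It was -0.0072 without the female statin replicate 3 and -0.40 without the female statin replicate 1.

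Nqo1 (chromosome 8, 107388225 to 107403206, minus strand) encodes the quinone reductase most often read as a marker of Nrf2 activity. It was at 10.4, 12.9 and 15.8 CPM in female chow and at 20.9, 9.37 and 12.9 CPM in female statin. The log2 fold change was 0.14 with the statin replicate 1, the highest of all 12 livers, and -0.22 without it. Its 95% interval ran from -0.61 to 0.89 (adjusted p = 0.973, edgeR), which leaves room for a ratio between 0.657 and 1.86.

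Hmox1 (chromosome 8, 75093621 to 75100589, plus strand) encodes heme oxygenase 1, which opens the heme ring. Its level was 28.3, 27.9 and 22.4 CPM in female chow and 24.6, 27.2 and 15.3 CPM in female statin. The groups overlapped, with 1 statin liver below all others (log2 fold change -0.23, 95% interval -0.80 to 0.35, adjusted p = 0.894, edgeR). Without that liver, replicate 3, the log2 fold change was -0.0013, and without the female statin replicate 2 it was -0.39.

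In males the adjusted threshold was passed by 0 of the 10 genes with edgeR, DESeq2 and limma. Over all genes the share was 0% by edgeR (0 of 11968 genes, against 0.0334% or 4 genes by DESeq2 and 0 by limma). Before adjustment 0 of the 10 had a p-value under 0.05, against 1.96% of all genes, and in 0 of the 10 did the statin and chow livers separate, against 7.95% of all genes. The adjusted p-value was 1.00 for each member. The median log2 fold change was -0.036, beside 0.0036 over all genes tested.

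The regulators in males gave intervals that all included 0. Nfe2l2 was at 58.6, 64.7 and 63.2 CPM in male chow and at 61.7, 50.5 and 57.9 CPM in male statin (log2 fold change -0.13, 95% interval -0.38 to 0.12). Sqstm1 was at 287, 319 and 318 CPM in male chow and at 301, 248 and 228 CPM in male statin. The male statin replicate 1 lay inside the chow range, and the other statin livers lay below it (log2 fold change -0.25, 95% interval -0.55 to 0.048). Keap1 had a log2 fold change of -0.16 (95% interval -0.49 to 0.18).

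The spread of Gclc in male statin was wider than that of any other member in any group, with a coefficient of variation of 44.8%. Its level was 208, 270 and 231 CPM in male chow and 315, 179 and 135 CPM in male statin. The treated livers thus held both the highest and the lowest value of the 6. The log2 fold change was -0.17 (95% interval -0.73 to 0.39), and without the male statin replicate 1 it was -0.59 (adjusted p = 0.730, edgeR). Gclm followed the same order of livers, at 259, 198 and 187 CPM in male statin, against 215, 239 and 234 CPM in male chow.

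The same liver decided the sign for both reductases. Gsr was at 59.4, 42.6 and 40.6 CPM in male statin, against 43.2, 48.9 and 44.99 CPM in male chow, and its log2 fold change turned from 0.058 to -0.13 without the male statin replicate 1. Txnrd1 was at 159, 124 and 115 CPM in male statin, against 119, 133 and 130 CPM in male chow, and turned from 0.057 to -0.092. In Gsr the other statin livers lay below all chow livers, and in Txnrd1 replicate 2 lay among them and replicate 3 below.

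Srxn1, Nqo1 and Hmox1 did not follow that order. Srxn1 was at 32.5, 38.4 and 45.3 CPM in male statin, with replicate 1 the lowest, and Nqo1 was at 4.85, 10.4 and 10.01 CPM, again with replicate 1 the lowest. In male chow Srxn1 was at 28.0, 41.1 and 27.8 CPM and Nqo1 at 6.93, 9.31 and 4.76 CPM, so the groups overlapped in both genes. Hmox1 was at 12.5, 24.8 and 12.8 CPM in male chow and at 16.3, 18.8 and 15.9 CPM in male statin. The 95% intervals of the log2 fold changes were -0.20 to 0.72 for Srxn1, -0.49 to 1.03 for Nqo1 and -0.56 to 0.60 for Hmox1.

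**Figure D2:**
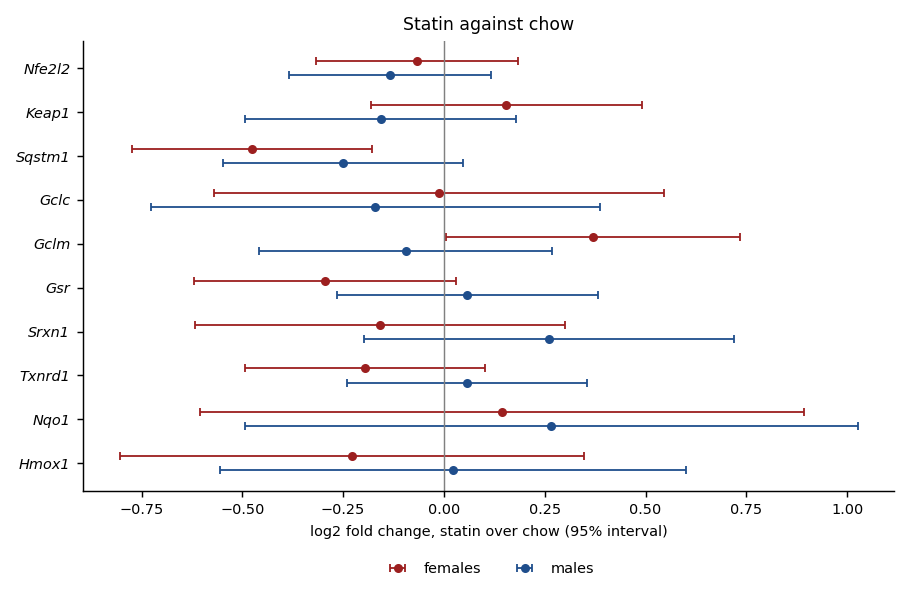
Log2 fold change of statin over chow for each gene (x axis; points, with 95% intervals from edgeR as bars), in females (red) and males (blue). Sqstm1 and Gclm in females are the intervals that do not reach 0, and no interval for males excludes 0.

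Whether the response differed between the sexes was tested as the interaction of sex and statin, the female log2 fold change minus the male one. By edgeR 0 of the 10 genes passed the adjusted threshold, as did 0% of all genes (1.02% or 122 genes by DESeq2 and 0 by limma), and 0 of the 10 did by DESeq2 or limma. Before adjustment 0 of the 10 had a p-value under 0.05, against 8.01% of all genes. The lowest adjusted p-value among the members was 0.701, for Gclm, with a difference of 0.46 (95% interval -0.050 to 0.98; 0.30 to 0.62 over the alternatives). For Sqstm1 the difference between the responses was -0.23 (95% interval -0.65 to 0.19, adjusted p = 0.901, edgeR; -0.31 to -0.10 over the alternatives), so the fold changes of the sexes were not separated by this test.

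The livers of a group did not rank the same way in every gene, but some were at the edge of their group in most members. The male statin replicate 1 was the highest of its group in 7 of the 10 genes, namely Nfe2l2, Keap1, Sqstm1, Gclc, Gclm, Gsr and Txnrd1, and the lowest in Srxn1 and Nqo1. The male statin replicate 3 was the lowest in 7 and the highest in Srxn1. Among the male chow livers, replicate 2 was the highest in 9 genes and replicate 1 the lowest in 8. The female statin replicate 1 was the lowest in 7 genes and the highest in Srxn1 and Nqo1. Across 7632 genes, the deviations of these livers from their group means also correlated with exonic length, with Spearman's rho of 0.436 for male statin replicate 1, -0.473 for male statin replicate 3, -0.334 for male chow replicate 1 and -0.400 for female statin replicate 1, while male chow replicate 2 had -0.073. Livers that were not at the edge in most members had rho of similar size, 0.421 for female statin replicate 2 and 0.382 for male chow replicate 3. The female chow replicate 1 was the highest of its group in 6 members and the lowest in the other 4, and had a rho of 0.277. Genes are not independent replicates, and the part of length in the members' values was not tested beyond the length offset, under which 0 of the members passed the threshold for statin in either sex.

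**Figure D3:**
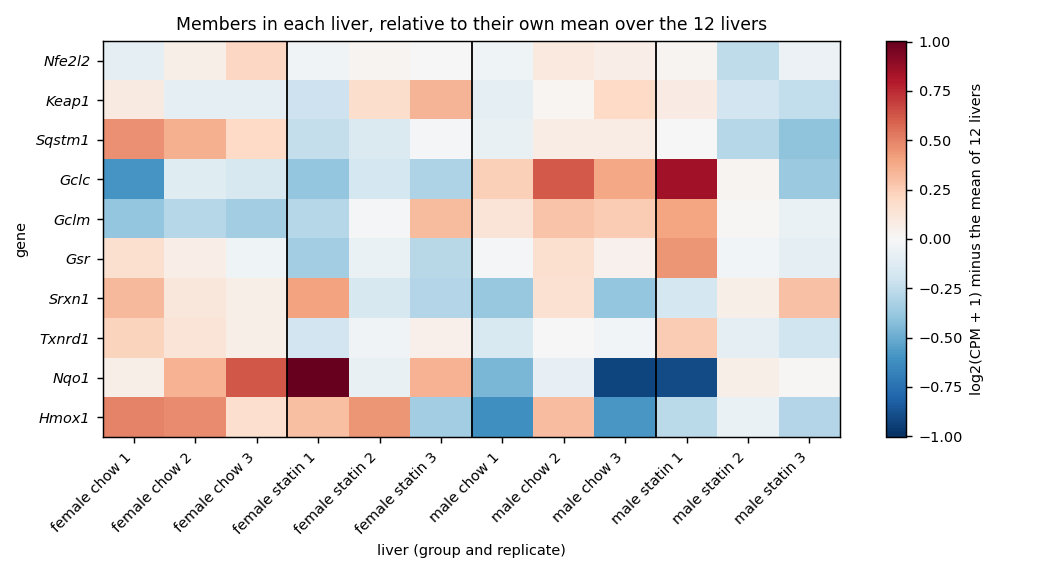
Each gene (rows) in each of the 12 livers (columns), as log2(CPM + 1) minus the gene's mean over the 12 livers, in colour from blue (lower) to red (higher). The column of male statin replicate 1 shows red for Gclc, Gclm, Gsr and Txnrd1 and blue for Nqo1, and the Nqo1 and Hmox1 rows are mostly red in females and blue in males.

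Females and males were next compared on chow, as the baseline of the pathway. By edgeR 0 of the 10 genes passed the adjusted threshold, where 10.4% of all genes did (5.96% higher in females). DESeq2 called 2 of the 10, where it called 16.3% of all genes, and limma 1, where it called 11.0%. Before adjustment 5 had p-values under 0.05, against 24.9% of all genes: Sqstm1, Nqo1 and Hmox1 with higher levels in females, and Gclc and Gclm with lower ones. In 5 genes the sexes did not overlap, against 37.7% of all genes: Sqstm1, Txnrd1 and Nqo1 higher, and Gclc and Gclm lower in females.

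Both subunits of glutamate-cysteine ligase had lower values in females. Gclm was at 150, 161 and 154 CPM in female chow and at 215, 239 and 234 CPM in male chow, without overlap. Its log2 fold change, females over males, was -0.57 (SE 0.17, 95% interval -0.93 to -0.20, adjusted p = 0.0506, edgeR). The adjusted p was 0.0106 by DESeq2 and 0.0444 by limma, so this gene lay at the threshold and its call depended on the tool. Gclc was at 116 to 162 CPM in female chow and at 208 to 270 CPM in male chow, a log2 fold change of -0.71 (SE 0.26, 95% interval -1.26 to -0.15). Its adjusted p was 0.105 by edgeR, 0.0477 by DESeq2 and 0.0941 by limma. Without the male statin replicate 1, which enters the shared estimate of the spread, edgeR gave an adjusted p of 0.0190 for Gclc and 0.0297 for Gclm.

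Nqo1 and Hmox1 had higher values in females. Nqo1 was at 10.4, 12.9 and 15.8 CPM in female chow and at 6.93, 9.31 and 4.76 CPM in male chow, without overlap (log2 fold change 0.89, SE 0.35, 95% interval 0.13 to 1.66, adjusted p = 0.129, edgeR). Hmox1 was at 28.3, 27.9 and 22.4 CPM in female chow, and in male chow replicates 1 and 3, at 12.5 and 12.8 CPM, lay below all females while replicate 2, at 24.8 CPM, lay among them. Its log2 fold change was 0.65 (95% interval 0.069 to 1.23, adjusted p = 0.149, edgeR). Without male chow replicate 2 it was 1.05, with an adjusted p of 0.0199 by edgeR.

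Hmox1 is abundant in Kupffer cells, the resident macrophages that take up aged red cells. The summed level of 10 Kupffer cell markers was 665 to 814 CPM in female chow and 356 to 556 CPM in male chow, and 545 to 971 CPM in female statin and 363 to 464 CPM in male statin. Of the 10 markers 5 passed the adjusted threshold as higher in females on chow (Clec4f, Vsig4, C1qa, C1qb and C1qc), where 5.96% of all genes did, and 7 on statin, where 6.28% of all genes passed in either direction. On chow the Vsig4 call held with each liver left out in turn, and the other 4 were lost without the male chow replicate 1 or 3 (adjusted p up to 0.0913, edgeR), C1qb also without the female chow replicate 2 or 3 and C1qc without the female chow replicate 3. Markers of other cell types also had higher values in females on chow. For 6 stellate cell and fibroblast markers the summed level was 305 to 365 CPM in female chow and 190 to 217 CPM in male chow, with 6 of 6 log2 fold changes above 0 and 2 called. For 6 endothelial markers it was 262 to 280 CPM in female chow and 175 to 235 CPM in male chow, with 6 of 6 above 0 and 1 called. No marker of these 3 lists was at 0 in any group. The part of these cells in the Hmox1 values was not tested. In a bulk liver, fewer cells of a type and less RNA per cell cannot be told apart. Of 8 hepatocyte markers 5 had log2 fold changes above 0 and 3 below 0 in females on chow, with a median of 0.069. Of these, 2 passed the threshold, both lower in females, where 10.4% of all genes passed, and 0 were at 0.

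Nfe2l2 had a log2 fold change of 0.024 (95% interval -0.23 to 0.27) and Keap1 of -0.075 (95% interval -0.41 to 0.26). Sqstm1 was higher in every female on chow (348 to 416 CPM) than in every male (287 to 319 CPM), with a log2 fold change of 0.32 (95% interval 0.020 to 0.62, adjusted p = 0.171, edgeR). Gsr was at 42.2 to 48.8 CPM in females and 43.2 to 48.9 CPM in males, a log2 fold change of -0.0030 (95% interval -0.33 to 0.32).

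On statin, 0 of the 10 genes passed the adjusted threshold between females and males by edgeR, DESeq2 or limma, where 6.28% of all genes did by edgeR, 10.7% by DESeq2 and 6.33% by limma. Before adjustment 2, Gsr and Nqo1, had p-values under 0.05, against 19.4% of all genes. In 0 of the 10 were the sexes without overlap, against 19.6% of all genes. Gsr had lower values in females on statin, at 34.1 to 41.6 CPM against 40.6 to 59.4 CPM in males (log2 fold change -0.36, 95% interval -0.68 to -0.032, adjusted p = 0.203, edgeR). For Gclm the log2 fold change between the sexes was -0.10 on statin (95% interval -0.47 to 0.26), and for Gclc -0.55 (95% interval -1.11 to 0.011, adjusted p = 0.271, edgeR). Nqo1 and Hmox1 had log2 fold changes of 0.77 (95% interval 0.016 to 1.53) and 0.40 (95% interval -0.18 to 0.97).

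**Figure D4:**
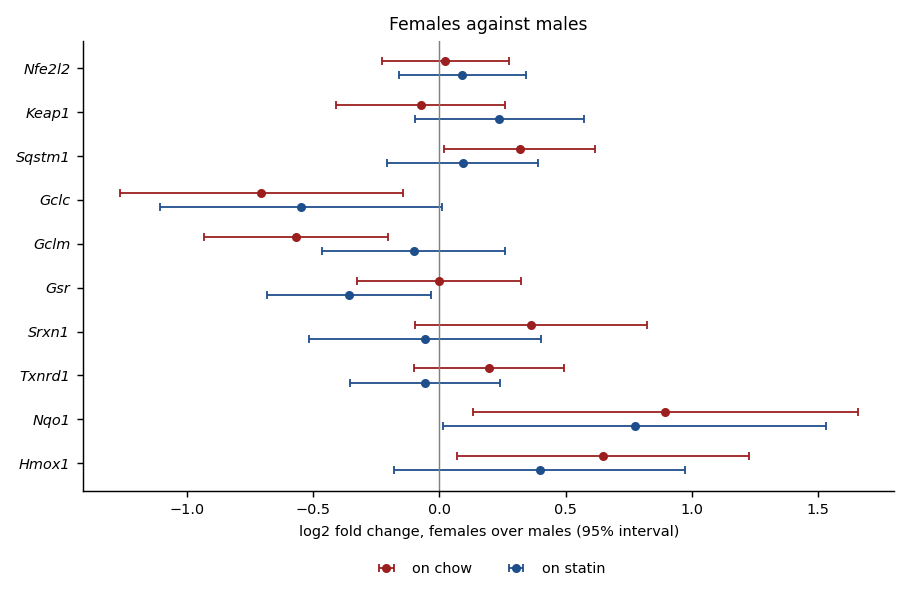
Log2 fold change of females over males for each gene (x axis; points, with 95% intervals from edgeR as bars), on chow (red) and on statin (blue). Gclc and Gclm lie left of 0 and Nqo1 and Hmox1 right of 0 on chow, and the intervals for the same genes on statin overlap those on chow.

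The partners and regulators around Nrf2 came next. Of a list of 14 genes 13 passed the filter on low counts (Palb2 did not). With statin 0 of the 13 passed the adjusted threshold in either sex by edgeR, with 3 at an unadjusted p-value under 0.05 in females, against 10.5% of all genes, and 0 in males. On chow 2 of the 13 were higher in females, against 5.96% of all genes, both of them small Maf proteins, which pair with Nrf2 on the response element. Maff was at 11.3, 13.4 and 14.6 CPM in female chow and at 4.85, 4.77 and 6.88 CPM in male chow, a log2 fold change of 1.26 (SE 0.20, adjusted p = 0.00244, edgeR). Mafk was at 24.7 to 27.0 CPM in female chow and 14.3 to 15.4 CPM in male chow (log2 fold change 0.78, SE 0.18, adjusted p = 0.0165, edgeR), and it overlaps Tmem184a on the other strand. The Mafk call was lost without the female chow replicate 2 or 3 or any single male chow liver (adjusted p up to 0.0700, edgeR). Mafg, the third small Maf gene, was added after its values were seen and overlaps Sirt7 on the same strand. It was at 56.3 to 80.1 CPM in female chow and 75.1 to 89.9 CPM in male chow (log2 fold change -0.25, adjusted p = 0.345, edgeR).

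In females on statin Maff and Mafk were below all females on chow, as in 5.97% of all genes. Both were named for their calls between the sexes on chow, which use the same female chow livers. Mafk also had the smallest p-value with statin in its list, so nothing is read from that share. Maff was at 6.77, 7.94 and 9.26 CPM (log2 fold change -0.72, 95% interval -1.16 to -0.28) and Mafk at 20.3, 17.2 and 11.5 CPM (log2 fold change -0.66, 95% interval -1.04 to -0.27). The adjusted p-values by edgeR were 0.217 and 0.192, and DESeq2 gave 0.0395 for each. In males the log2 fold changes were 0.0049 for Maff and 0.046 for Mafk, and the interactions had adjusted p-values of 0.528 and 0.472 (edgeR).

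The list of genes around NADPH had the lowest median among the lists in females on statin. NADPH is the reductant used by Gsr, Txnrd1 and Nqo1. The list held Pgd, G6pdx, Me1 and Idh1, which encode enzymes that make it. It also held Tkt and Taldo1 of the pentose phosphate pathway, whose enzymes do not make NADPH. Of 6 genes 0 passed the adjusted threshold, 5 had an unadjusted p-value under 0.05, against 10.5% of all genes, and in 5 the statin livers lay wholly below the chow livers, against 5.97% of all genes. The median log2 fold change was -0.94, beside 0.013 over all genes tested. The stellate cell and fibroblast markers also had values below 0 in these livers (median -0.43), and their part in these values was not tested. In males 0 of the 6 passed, with a median of 0.20. There 1 of the 6 had an unadjusted p-value under 0.05, against 1.96% of all genes, and in 3 the statin livers lay wholly above the chow livers, against 3.64% of all genes. In the interaction 0 of the 6 passed by edgeR, and 4 had an unadjusted p-value under 0.05, against 8.01% of all genes. On chow 5 of the 6 passed as higher in females, where 5.96% of all genes did, with a median log2 fold change of 1.65 over the 6. On statin 0 of the 6 passed between the sexes by edgeR, where 6.28% of all genes did, 1 had an unadjusted p-value under 0.05, against 19.4%, and the median was 0.19.

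Pgd encodes 6-phosphogluconate dehydrogenase of the pentose phosphate pathway. The study had also examined this gene and reported lower expression in statin-treated females. Its values, also within the counts of the list, are thus not independent evidence of a direction. In female statin it was at 92.6, 68.3 and 32.5 CPM, against 229, 159 and 156 CPM in female chow (log2 fold change -1.49, SE 0.30, adjusted p = 0.0951, edgeR). DESeq2 called it, and so did edgeR without a filter on low counts, each with an adjusted p of 2.90e-04, and the highest adjusted p over all alternatives was 0.395. In males it was at 36.0 to 47.8 CPM on statin and 35.5 to 39.9 CPM on chow. On chow the log2 fold change of females over males was 2.26 (SE 0.30, adjusted p = 6.47e-04, edgeR).

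G6pdx, which encodes glucose-6-phosphate dehydrogenase, the entry to that pathway, overlaps Ikbkg on the other strand and was at 117, 84.2 and 37.5 CPM in female chow and at 43.8, 28.7 and 5.32 CPM in female statin. The groups overlapped, and replicate 3 was the lowest in both (log2 fold change -1.61, SE 0.60, adjusted p = 0.359, edgeR). Without a filter on low counts its adjusted p was 0.0416 by edgeR. In male chow it was at 4.996, 3.92 and 5.02 CPM, a log2 fold change of females over males of 4.10 (SE 0.67, adjusted p = 0.00260, edgeR). Tkt (transketolase), which overlaps Mir3076 on the same strand, was at 221 to 254 CPM in female chow and 113 to 124 CPM in male chow (log2 fold change 1.04, SE 0.22, adjusted p = 0.0111, edgeR). Without the male chow replicate 1 its adjusted p was 0.0516 by edgeR.

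Me1 encodes cytosolic malic enzyme and overlaps Gm38230 on the same strand and A330041J22Rik on the other. It was at 1140, 1092 and 872 CPM in female chow and at 828, 356 and 109 CPM in female statin. In males it was at 227, 207 and 170 CPM on chow and at 285, 474 and 559 CPM on statin. The livers did not overlap in either sex, and the directions were opposite, as in 1.12% of all genes (log2 fold change -1.26 in females, adjusted p = 0.403, and 1.13 in males, adjusted p = 1.00, edgeR). Me1 was named for its call between the sexes on chow, which uses the same chow livers, so nothing is read from that share. The female value was -2.14 without the female statin replicate 1 and -0.79 without the female statin replicate 3. On chow females were higher by a log2 fold change of 2.36 (SE 0.53, adjusted p = 0.0150, edgeR), and on statin the difference was -0.028. The call on chow was lost without any single male chow liver (adjusted p up to 0.0662, edgeR).

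**Figure D5:**
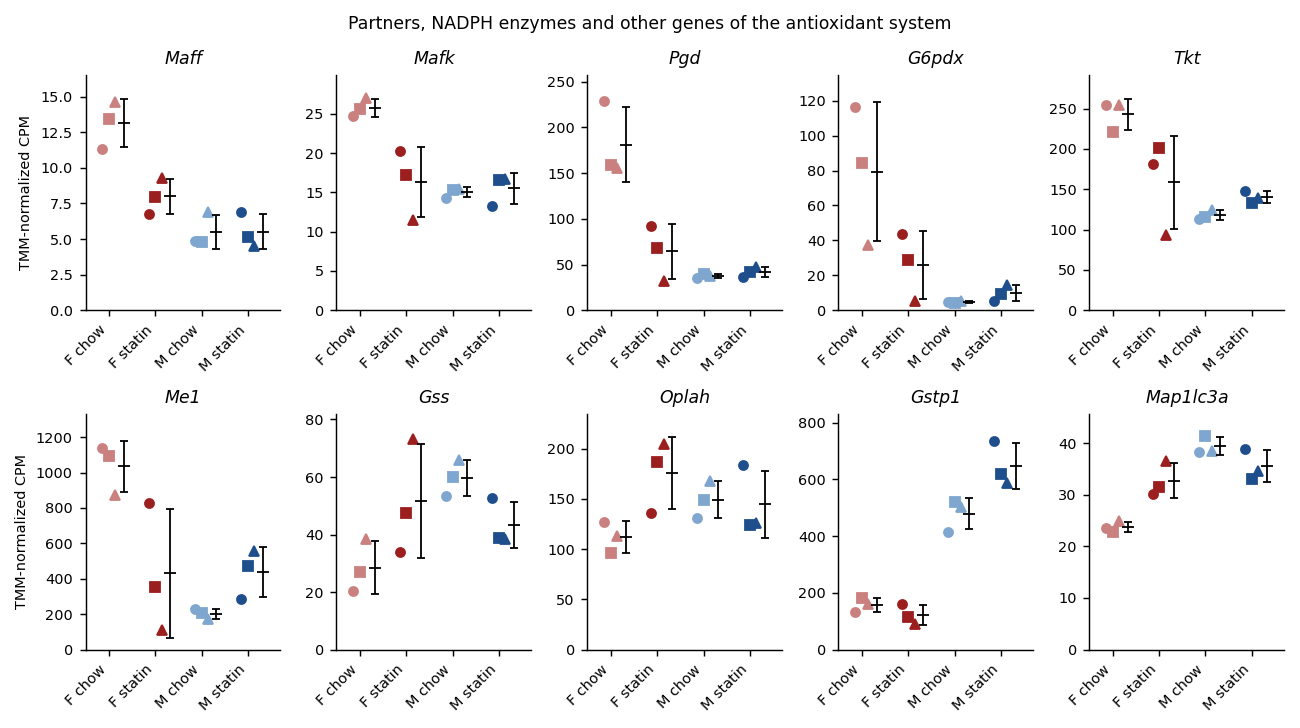
TMM-normalized CPM (y axis, from 0) of 10 genes around the pathway in each liver of the 4 groups (F, female and M, male; circle, square and triangle for replicates 1, 2 and 3), with the mean and SD of 3 livers in black. Maff, Mafk, Pgd, G6pdx, Tkt and Me1 are highest in female chow, while Gstp1 is highest in the male livers.

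The other glutathione genes did not share a direction. Of 15 genes 12 passed the filter, since Ggt1, Slc7a11 and Gpx2 were at or below 0.201 CPM in every liver, and 0 of the 12 passed the adjusted threshold with statin in either sex (edgeR; 3 had an unadjusted p-value under 0.05 in females, against 10.5% of all genes, and 0 in males). On chow 2 were higher and 1 lower in females, where 10.4% of all genes were called. Gss encodes glutathione synthetase, the step after glutamate-cysteine ligase, and overlaps Acss2, Gssos1 and Gssos2 on the other strand. It was at 20.2, 26.9 and 38.4 CPM in female chow against 53.3, 60.02 and 65.8 CPM in male chow. Like Gclc and Gclm it was thus below all males (log2 fold change -1.07, SE 0.28, adjusted p = 0.0296, edgeR). This call was lost without the female chow replicate 1 or 2 or any single male chow liver (adjusted p up to 0.0965, edgeR). In female statin it was at 34.0, 47.6 and 73.2 CPM (log2 fold change 0.86, 95% interval 0.26 to 1.46, adjusted p = 0.271, edgeR; 0.54 to 1.13 over the alternatives). Oplah, the 5-oxoprolinase that returns glutamate to the cycle, overlaps Exosc4 and Smpd5 on the other strand and was at 95.9 to 127 CPM in female chow and 135 to 205 CPM in female statin, without overlap (log2 fold change 0.65, adjusted p = 0.241, edgeR). It was named for the smallest p-value with statin in its list, so the separation is a description. Of all genes 6.03% also lay wholly above chow. Ggct and Ggt6, which act in glutathione breakdown, were higher in females on chow by log2 fold changes of 0.85 (adjusted p = 0.0137, edgeR) and 0.49 (adjusted p = 0.0386, edgeR). The Ggct call was lost without the female chow replicate 1 or the male chow replicate 1 or 2 (adjusted p up to 0.0664, edgeR). The Ggt6 call was lost without any single chow liver or the male statin replicate 2 (adjusted p up to 0.121, edgeR), and also with library size alone, without a filter on low counts, with the length offset and with the replicate block (adjusted p = 0.0571, 0.106, 0.116 and 0.0635, edgeR).

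Of 11 other thioredoxin and peroxiredoxin genes 0 passed the threshold with statin in either sex by edgeR, where 0.100% of all genes passed in females and 0% in males. An unadjusted p-value under 0.05 was found for 0 of the 11 in either sex, against 10.5% of all genes in females and 1.96% in males. Txnip, which encodes the inhibitor of thioredoxin and overlaps Gm15441 on the other strand, was the 1 that passed between the sexes on chow, against 10.4% of all genes. It was at 146 to 172 CPM in female chow and 85.1 to 97.3 CPM in male chow (log2 fold change 0.82, SE 0.11, adjusted p = 7.45e-04, edgeR). On statin it was at 171 to 194 CPM in females and 80.9 to 84.6 CPM in males (log2 fold change 1.15, SE 0.11, adjusted p = 5.07e-05, edgeR).

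Heme breakdown and ferritin, downstream of Hmox1, held 6 genes. Of these 0 passed in any of the 5 comparisons by edgeR, where up to 10.4% of all genes did, and 0 had an unadjusted p-value under 0.05, against 10.5% of all genes with statin in females, 1.96% in males, 8.01% in the interaction, and 24.9% and 19.4% between the sexes on chow and on statin. Slc48a1, the heme transporter of the phagolysosome, overlaps Hdac7 on the other strand and was at 42.5 to 44.0 CPM in female chow and 42.0 to 50.7 CPM in female statin. Of 4 superoxide and peroxide enzymes outside the classic targets, 0 passed with statin by edgeR, and 0 had an unadjusted p-value under 0.05 in either sex, against 10.5% of all genes in females and 1.96% in males. On chow Sod3, the extracellular superoxide dismutase, was higher in females by a log2 fold change of 0.96 (edgeR, adjusted p = 0.0224), and on statin by 1.18 (adjusted p = 0.0109, edgeR). The call on chow was lost without the female chow replicate 1 or 3 or the male chow replicate 1 or 3 (adjusted p up to 0.0978, edgeR), and that on statin without the male statin replicate 2 or 3 and with only the groups compared (up to 0.0767, edgeR). Cat (catalase) was lower in females on chow by a log2 fold change of -0.69 (edgeR, adjusted p = 0.0313), at 1510 to 2008 CPM against 2672 to 2997 CPM. This call was lost with the replicate block (adjusted p = 0.0643, edgeR) and without the female chow replicate 1 or 2 or any single male chow liver (up to 0.107, edgeR).

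Of 24 other detoxification targets 22 passed the filter (Gsta1 and Cbr3 did not). With statin 0 of the 22 passed in either sex (edgeR; 5 had an unadjusted p-value under 0.05 in females, against 10.5% of all genes, and 1 in males, against 1.96%). On chow 10 of the 22 did, 5 higher and 5 lower in females, against 10.4% of all genes. The glutathione S-transferases went both ways. Gstp1 was at 132 to 182 CPM in female chow and 416 to 519 CPM in male chow, a log2 fold change of -1.60 (SE 0.21, adjusted p = 4.56e-04, edgeR). On statin it was at 91.4 to 159 CPM in females and 586 to 737 CPM in males, a log2 fold change of -2.41 (SE 0.21, adjusted p = 1.76e-05, edgeR).

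Of 4 genes of the mu class 3 were higher in females on chow, Gstm2 by a log2 fold change of 1.59 (edgeR, adjusted p = 0.00235), Gstm3 by 2.47 (adjusted p = 0.00288, edgeR) and Gstm4 by 0.95 (adjusted p = 0.0151, edgeR). The fourth, Gstm1, named to complete the listed genes of this class, was at 1103 to 1244 CPM in female chow and 756 to 866 CPM in male chow, without overlap, and did not pass (log2 fold change 0.56, adjusted p = 0.108, edgeR). These genes are close copies of each other, and the counting could split reads among them. The Gstm4 call was lost without the female chow replicate 1 or 2 or the male chow replicate 3 (adjusted p up to 0.0659, edgeR). Gstm3 was at 98.2 to 117 CPM in female chow and 19.2 to 88.4 CPM in female statin, and at 16.5 to 25.1 CPM in male chow and 30.7 to 47.6 CPM in male statin. Abcc4, an export pump of the basolateral membrane, overlaps Mir6391 on the same strand and Gm23302 and Gm49033 on the other and was at 6.21 to 11.0 CPM in female chow and 2.05 to 3.02 CPM in male chow (log2 fold change 1.75, adjusted p = 0.00242, edgeR), and on statin the log2 fold change was 1.87 (adjusted p = 0.00202, edgeR).

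Beside Sqstm1, 10 autophagy receptors and adaptors were measured, of which 0 passed with statin by edgeR, with 2 at an unadjusted p-value under 0.05 in females, against 10.5% of all genes, and 0 in males. Map1lc3a, which encodes an LC3 protein that p62 binds on the autophagosome, was at 23.5, 22.9 and 24.9 CPM in female chow and at 30.2, 31.6 and 36.5 CPM in female statin, without overlap. Of all genes 6.03% also lay wholly above chow. The gene was named for its call on chow and the smallest p-value with statin in its list, so the separation is a description. Its log2 fold change was 0.46 (SE 0.11, adjusted p = 0.129, edgeR), and DESeq2 gave an adjusted p of 0.00604. On chow it was lower in females than in males by a log2 fold change of -0.73 (SE 0.11, adjusted p = 0.00167, edgeR).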

How the data were processed

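The authors deposited raw counts per gene for 11968 genes and CPM for all annotated genes. Per the labels, reads of strand-specific libraries were aligned with STAR 2.4.1a to GRCm38 and counted with HTSeq, and edgeR 3.28.1 was used; the strand setting of the counting was not given in the sources used here. The deposited counts were kept for genes above 1 CPM in at least 6 livers, which was checked on the values, and 100% of the CPM values were whole reads within 0.01, of which 0 differed from the count table. Gene positions and lengths came from GENCODE vM21 (GRCm38).

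Counts were fitted with edgeR 4.0.16 (quasi-likelihood, TMM factors 0.924 to 1.05, common dispersion 0.0380, prior degrees of freedom 4.14, all 12 livers in 1 fit of 4 groups, no covariate). Tests were two-sided with Benjamini-Hochberg adjustment over all genes, and SE and 95% intervals came from the F statistic. DESeq2 1.42.0 and limma 3.58.1 on log2(CPM + 1), other normalizations and filters, a length offset, only the groups compared, a replicate block and leaving out each liver were alternatives. R 4.3.3, Python 3.11.15, numpy 2.4.6, pandas 2.3.3, scipy 1.17.1 and matplotlib 3.10.9 were used, and the fits were tested on simulated data.

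The members, lists and tests were chosen with earlier results of these data known. Other genes named had an adjusted p under 0.05 in any comparison (at most 4 a list) or the smallest p with statin in their list. Replicate numbers follow the labels, and same-numbered livers are different mice.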

Additional observations from a re-analysis of the deposited data

Results flagged for a closer look

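In 3 of 30 genes, the 10 members and 20 named genes of the other lists, every statin liver lay above the chow livers in males and below them in females, so that the livers of the sexes were displaced in opposite directions. All 3 were among the named genes because they were called higher in females on chow, a choice that uses the same chow livers and favours this pattern, so their number is a description. Over all genes, 1.12% lay without overlap in opposite directions, counting both arrangements, and nothing is read from this share. The female log2 fold change minus the male one was -0.86 for Tkt, -2.39 for Me1 and -2.03 for Gstm3, and over the alternatives it lay between -1.08 and -0.58, -3.28 and -1.93, and -2.55 and -1.62 in that order. As an interaction across all genes these differences had adjusted p-values of 0.473, 0.363 and 0.319 (edgeR), and 0 of the 3 passed the threshold. Without a filter on low counts edgeR gave adjusted p-values of 0.0150 for Me1 and 0.0102 for Gstm3, and DESeq2 gave 0.0325 for Gstm3. For Tkt the female chow livers were at 254, 221 and 254 CPM, the female statin livers at 181, 202 and 93.0 CPM, the male chow livers at 113, 116 and 124 CPM and the male statin livers at 148, 133 and 139 CPM.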

How the results depend on the processing

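For statin, 0 of the 10 members passed in females under every alternative except DESeq2 (1, Sqstm1), and 0 passed in males or in the interaction under any. For females against males on chow, where edgeR called 0, DESeq2 called 2 members, limma 1, DESeq2 size factors in edgeR 1, library size alone 1, no filter 3, only the groups compared 3 and the length offset 1. Over all genes tested these called 1946, 1311, 1260, 1218, 1511 of 26304, 2151 and 1469 in that order. Leaving out each liver gave between 0 and 2, with 2 (Gclc and Gclm) without male statin replicate 1 and 1 without each female statin replicate (Gclm) or male chow replicate 2 (Hmox1). On statin 0 members passed under any alternative.

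Over all genes, the 12 calls in females with statin became 270 with DESeq2, 148 with no filter, 2 above 10 CPM in at least 6 livers, 0 with only the groups compared and 5 with the replicate block, and between 0 and 75 with each liver left out. In males DESeq2 gave 4. The interaction gave 122 with DESeq2, 103 with no filter, and between 0 and 14 with each liver left out. The 1250 calls between the sexes on chow became 1946 with DESeq2, 771 above 10 CPM and 2151 with only the groups compared, and between 635 and 1586 with each liver left out. The 751 on statin became 1284, 356 and 292 in that order, and between 378 and 743. Medians of the members with each liver left out lay between -0.18 and -0.0042 in females, between -0.17 and 0.067 in males, between -0.27 and -0.019 in the interaction, between 0.067 and 0.14 for the sexes on chow and between -0.025 and 0.12 on statin. The cause of these shifts was not tested.

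Log2 fold changes near 0 changed sign. In females with statin Gclc became 0.0040 with the length offset. Between the sexes on chow Nfe2l2 became -0.011 with library size alone, and Gsr 0.0014 with DESeq2 and with its size factors and 0.046 above 10 CPM. On statin Me1 became 0.018 above 10 CPM, and library size alone gave -4.62e-04 for Nfe2l2 and -4.84e-04 for Sqstm1. With each liver left out, the values that changed sign lay, for statin in females, between -0.13 and 0.019 (Nfe2l2), -0.14 and 0.080 (Gclc) and -0.22 and 0.38 (Nqo1). For statin in males they lay between -0.59 and 0.067 (Gclc), -0.13 and 0.16 (Gsr), -0.092 and 0.15 (Txnrd1), -0.15 and 0.42 (Hmox1), -0.18 and 0.20 (Maff) and -0.011 and 0.15 (Mafk). In the interaction they lay between -0.011 and 0.14 (Nfe2l2), -0.079 and 0.57 (Gclc) and -0.50 and 0.10 (Nqo1). On chow they lay between -0.061 and 0.091 (Nfe2l2), -0.15 and 0.0097 (Keap1) and -0.062 and 0.049 (Gsr), and on statin between -0.27 and 0.055 (Gclm), -0.32 and 0.077 (Srxn1), -0.15 and 0.093 (Txnrd1) and -0.92 and 0.42 (Me1).

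The named calls between the sexes on chow that were lost when a liver was left out were Ggt6 (adjusted p up to 0.121), Cat (0.107), Sod3 (0.0978), Gss (0.0965), C1qb (0.0913), C1qc (0.0702), Mafk (0.0700), Ggct (0.0664), Me1 (0.0662), Gstm4 (0.0659), Clec4f (0.0619), C1qa (0.0584) and Tkt (0.0516), and Sod3 on statin (up to 0.0767, with only the groups compared; edgeR). Same-numbered livers are different mice, and the deviations of 18 same-numbered pairs had a mean correlation of -0.108, against 0.0576 for other pairs. With the replicate block, besides the count of 5 in females, Ggt6 (0.0635) and Cat (0.0643) lost their calls on chow. No other call was lost with the block among the genes named beside the members and the 5 Kupffer cell markers on chow, and among the named genes on statin. Ggt6 also lost it with library size alone (0.0571), no filter (0.106) and the length offset (0.116). The stricter filter left out Maff, Ggct and Abcc4.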
